A study of Homo sapiens with 11 samples.

Results

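Messenger RNA of 10 genes of the Notch pathway was followed in RWPE1 cells, an immortalised line of non-tumorigenic human prostate epithelial cells, as they were moved from normoxia to low oxygen. The genes were taken by name from the count table, out of 60676 genes in all. They comprise the receptors NOTCH1, NOTCH2 and NOTCH3, the ligands JAG1, JAG2 and DLL1, and the transcriptional targets HES1, HES4, HEY1 and NRARP. The time course held 3 libraries of normoxic cells (0 h) and 3, 3 and 2 libraries of cells kept at 1% oxygen for 6, 12 and 24 h. All cells grew in a serum-free keratinocyte medium with bovine pituitary extract and epidermal growth factor, and the hypoxic cultures also received 10 mM HEPES buffer, so that low oxygen and the buffer cannot be told apart. All libraries come from a single line, and the labels do not say whether replicates were separate cultures, so the p-values measure the spread between these libraries, which may be technical.

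Notch signalling passes between touching cells. A ligand of the Jagged or Delta-like families on one cell binds a Notch receptor on its neighbour, a metalloprotease and then gamma-secretase cut the receptor, and the freed intracellular domain joins the DNA-binding protein RBPJ and a Mastermind coactivator to switch on genes of the HES and HEY families. In epithelia such as that of the prostate, the pathway takes part in the balance between basal cells and their differentiating progeny.

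Library totals ran from 27496009 to 49488345 counts, and each of the 10 genes had at least 10 counts in every library, with a range of 10 to 22666. All 10 passed the filter on low counts, as did 19981 of the 60676 genes. The basal keratins KRT5 and KRT14 were high at every time point, and summed basal marker levels (KRT5, KRT14, TP63 and ITGA6) were 7675 to 10526 CPM (TMM-scaled counts per 1e6) at 0 h and 16133 to 20846 CPM at 24 h. TP63, the basal master regulator, went the other way, from a mean of 242 CPM at 0 h to 73.5, 125 and 85.7 CPM at 6, 12 and 24 h, while summed luminal markers were 228 to 259 CPM at 0 h and 1066 to 1798 CPM at 24 h, almost all of it KRT8 and KRT18. KLK3, a defining luminal marker, was at 0 in all 11 libraries. Summed endothelial markers stayed at or below 0.385 CPM, summed leukocyte markers reached 3.38 CPM (nearly all CD14), and the fibroblast sum of 27.9 to 60.6 CPM was nearly all COL1A1. The part of these shifts in the Notch values was not tested, and in bulk RNA fewer cells of a type and less RNA per cell cannot be told apart. The 24 h pair stood apart from the other replicates: mitochondrially encoded genes took 1.74% and 0.369% of its counts against 10.2% to 10.3% at 0 h, its scaling factors were 0.851 and 0.539 against 1.29 to 1.32, and the Euclidean distance between its replicates in log2 CPM over all tested genes was 140, against 40.3 to 87.1 for the replicate pairs of the other time points.

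In hypoxia NOTCH3, the leading receptor of normoxic RWPE1 cells per length, fell 2.92- to 5.26-fold at every time point, and the target HEY1 fell 1.80- to 3.49-fold at every time point. DLL1 rose 3.43- to 4.60-fold at every time point from a low start, and HES1 rose 4.05-fold at 12 h and 5.25-fold at 24 h. NOTCH2 and NRARP rose at 6 h, by 1.92-fold and 2.04-fold, and NOTCH2 was below its normoxic level at 24 h. JAG1 and JAG2 did not pass the test at any time point.

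Counted over the 10 genes with edgeR's quasi-likelihood test, at a Benjamini-Hochberg adjusted p under 0.05 over all 19981 tested genes, 3 rose and 2 fell at 6 h, 3 rose and 3 fell at 12 h, and 2 rose and 4 fell at 24 h. Of all tested genes 52.8% were called at 6 h (25.1% higher and 27.7% lower), 51.2% at 12 h (24.2% and 27.1%) and 61.2% at 24 h (29.9% and 31.3%), so the counts of 5, 6 and 6 of the 10 genes lie at the background of this experiment. Hypoxic and normoxic libraries were fully separated for 8 of the members at 6 h, for 6 after 12 h and for 7 after 24 h, against 69.6%, 72.3% and 73.0% of all tested genes. The median log2 fold change of the 10 genes was 0.18, 0.22 and -0.40 at 6, 12 and 24 h, beside -0.0021, -0.033 and -0.065 over all tested genes. Comparing hypoxic cells with each other, 3 of the members were called for 12 h against 6 h, 3 for 24 h against 12 h and 4 for 24 h against 6 h, where 4.95%, 28.4% and 42.4% of all tested genes were called. NOTCH2 was among them each time. The comparisons with 0 h share the 3 normoxic libraries and are therefore not independent of each other.

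**Figure D1:**
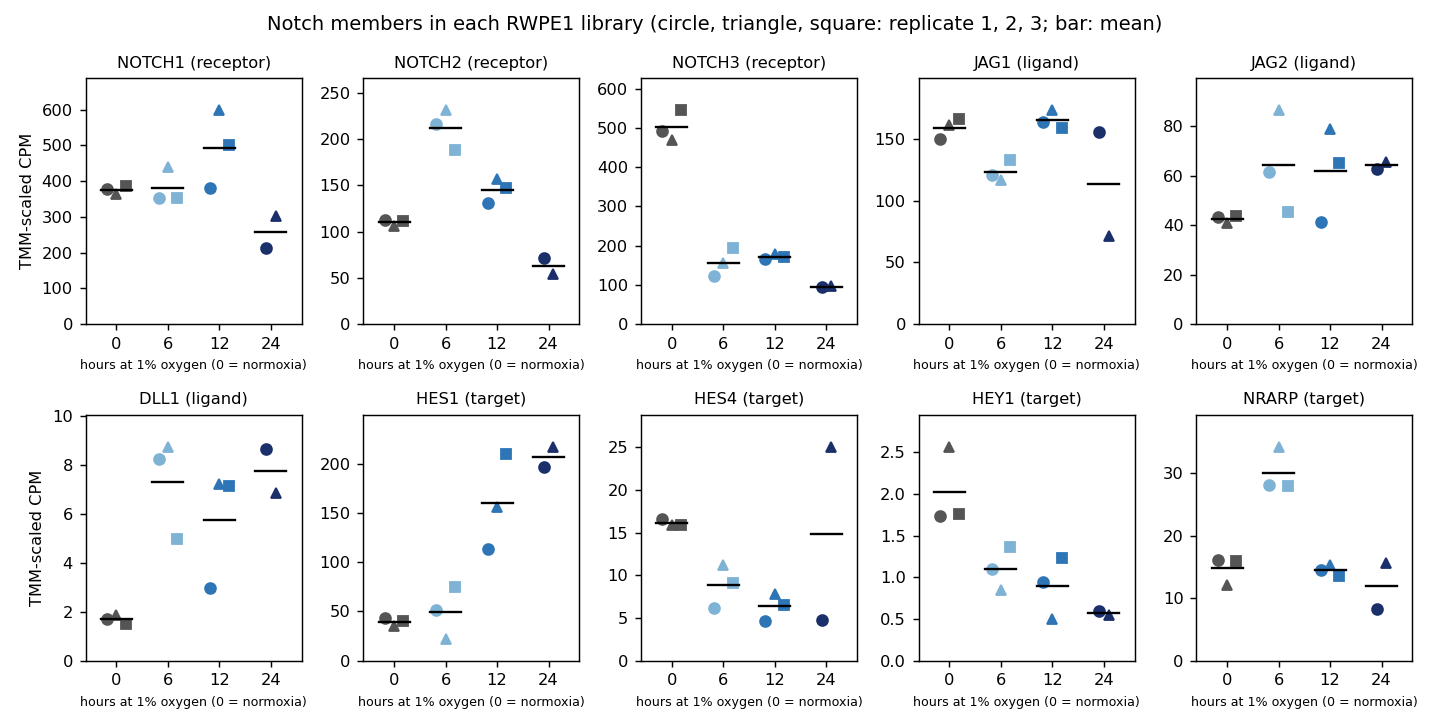
Levels of the 10 Notch genes in each of the 11 libraries, in TMM-scaled CPM on a linear axis from 0 with its own scale for each gene, by hours at 1% oxygen, with 1 point per library (circle, triangle and square for replicates 1, 2 and 3) and a bar at the mean of each time point. NOTCH3 and HEY1 lay lower in all 8 hypoxic libraries than in the 3 normoxic ones, DLL1 lay higher in all 8, and the 24 h points of HES4 and JAG1 are far apart.

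NOTCH3 (chromosome 19, 15159038 to 15200995, minus strand, GRCh38) encodes a receptor best known for its role in vascular smooth muscle. Its libraries held 491, 469 and 545 CPM in normoxia, 122, 154 and 194 CPM at 6 h, 166, 178 and 171 CPM at 12 h, and 94.1 and 96.7 CPM at 24 h. Every hypoxic library was below every normoxic one, and the 24 h pair was lowest. The log2 fold change was -1.68 ± 0.17 (SE) at 6 h, -1.55 ± 0.17 at 12 h and -2.39 ± 0.20 at 24 h, with edgeR adjusted p = 8.17e-06, 1.93e-05 and 2.16e-06. NOTCH3 kept these calls against 0 h under all 20 alternatives of test, scaling, filter and libraries. At 6 and 12 h the exact two-sided permutation test gave p = 0.1 for it, the smallest value that 3 against 3 libraries allow. In the order of its levels, 0 h, 12 h, 6 h and 24 h, the 12 h and 6 h levels were not called different, and 24 h was called lower than 6 h. That last call was lost with sample quality weights (-0.67, limma-voom adjusted p = 0.139) and with only the 2 compared time points in the fit (-0.75, edgeR adjusted p = 0.0738).

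NOTCH1 (chromosome 9, 136494433 to 136546048, minus strand) encodes the receptor most often linked to epidermal differentiation. It was measured at 378, 364 and 387 CPM in normoxia, 354, 439 and 352 CPM at 6 h, 380, 598 and 501 CPM at 12 h, and 213 and 303 CPM at 24 h. The 6 and 12 h libraries overlapped the normoxic range, while both 24 h libraries were below it. Against 0 h the edgeR log2 fold change was 0.02 ± 0.19 (adjusted p = 0.938) at 6 h, 0.39 ± 0.19 (adjusted p = 0.105) at 12 h and -0.54 ± 0.22 (adjusted p = 0.0440) at 24 h. The call at 24 h was lost in 10 of 20 alternatives, among them leaving out any of the 3 normoxic libraries (edgeR adjusted p = 0.0690 to 0.0926) or the 6 h replicates 1 and 3, the 12 h replicate 3 or the 24 h replicate 1. Without the 24 h replicate 1 the log2 fold change was -0.37. At 12 h NOTCH1 was called higher without the 12 h replicate 1 (0.55; edgeR adjusted p = 0.0355) or the 24 h replicate 2 (0.39; edgeR adjusted p = 0.0431). Among its ordered levels, 12 h, 6 h, 0 h and 24 h, only 0 h and 24 h were called different as neighbours.

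NOTCH2 (chromosome 1, 119911553 to 120100779, minus strand), a receptor with roles in kidney, liver and B-cell development, went up and then down. It stood at 113, 106 and 112 CPM in normoxia, 216, 231 and 188 CPM at 6 h, 131, 157 and 147 CPM at 12 h, and 71.7 and 54.5 CPM at 24 h, and no library of one time point overlapped those of another. The edgeR log2 fold change against 0 h was 0.94 ± 0.14 (adjusted p = 0.000180) at 6 h, 0.39 ± 0.14 (adjusted p = 0.0354) at 12 h and -0.80 ± 0.16 (adjusted p = 0.00111) at 24 h. Each neighbouring pair in the order 6 h, 12 h, 0 h and 24 h was called different, but the call between 6 and 12 h (edgeR adjusted p = 0.0485) was lost in 11 of 20 alternatives. The rise at 6 h and the fall at 24 h were called in all 20 alternatives, whereas the call for 12 h against 0 h was lost in 8 and had the opposite sign (-0.07) with library size alone as the scaling. Of these, 5 left out 1 library each: any of the 3 normoxic libraries or the 12 h replicates 2 or 3 (edgeR adjusted p = 0.0859 to 0.164). With the replicate number as a block the 12 h value was 0.40 (edgeR adjusted p = 0.0595). NOTCH2 has near-identical partial copies (NOTCH2NLA, NOTCH2NLB, NOTCH2NLC and NOTCH2NLR), and reads that fit both cannot be assigned with certainty. Counts given to these copies equalled 8.63% to 9.67% of those given to NOTCH2 at 0 h, 2.51% to 3.08% at 6 h, 2.31% to 2.70% at 12 h, and 5.37% and 10.7% at 24 h.

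Levels of different genes are compared only per length, as FPKM (TMM-scaled CPM divided by the kilobases of merged exons). On that scale NOTCH3 made up 59.3% ± 1.2 (SD, n = 3) of the summed level of the 3 receptors in normoxia, NOTCH1 33.4% ± 0.9 and NOTCH2 7.33% ± 0.31. At 6 h the shares were 27.8% ± 5.7 for NOTCH3, 50.9% ± 3.6 for NOTCH1 and 21.3% ± 2.6 for NOTCH2 (SD, n = 3). At 12 h NOTCH3 held 27.9% ± 3.4 and NOTCH1 59.0% ± 4.2 (SD, n = 3), and at 24 h NOTCH3 held 29.6% ± 3.3 and NOTCH1 59.2% ± 6.9 (SD, n = 2). NOTCH1 thus ranked above NOTCH3 in all 8 hypoxic libraries and below it in all 3 normoxic ones. The summed receptor level went from 89.9 ± 5.2 FPKM to 59.7 ± 5.6, 66.2 ± 10.1 and 34.5 ± 4.5 FPKM at 6, 12 and 24 h (SD, n = 3, 3, 3 and 2). Divided by the length of the canonical transcript, an alternative chosen after the data were seen, NOTCH3 held 54.1%, 23.6%, 23.9% and 25.5% at 0, 6, 12 and 24 h. NOTCH4, the remaining receptor of the family, had 0 to 5 counts per library and was not tested.

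**Figure D2:**
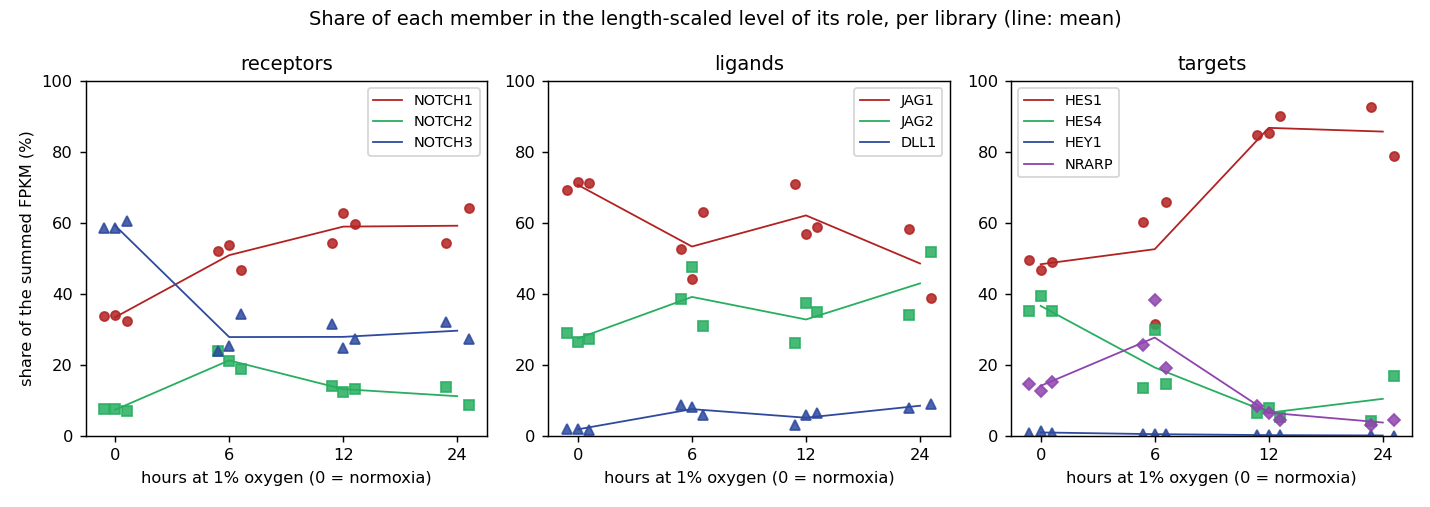
Share of each gene in the summed FPKM of the receptors, the ligands and the targets, from 0 to 100%, by hours at 1% oxygen, with 1 point per library and lines through the means of the time points. The NOTCH3 share of the receptors was 59.3% in normoxia and 27.8% to 29.6% in hypoxia, and the HES1 share of the targets was 48.4% in normoxia and 86.8% and 85.8% at 12 and 24 h.

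Among the ligands, DLL1 (chromosome 6, 170282206 to 170306565, minus strand), a Delta-like ligand that also acts in somite formation, was the only member called. Its libraries held 1.69, 1.87 and 1.51 CPM in normoxia, 8.23, 8.72 and 4.98 CPM at 6 h, 2.98, 7.20 and 7.13 CPM at 12 h, and 8.64 and 6.87 CPM at 24 h, and normoxic and hypoxic libraries did not overlap. Its log2 fold change was 2.11 ± 0.33 at 6 h, 1.78 ± 0.33 at 12 h and 2.20 ± 0.36 at 24 h, with edgeR adjusted p = 0.000194, 0.000769 and 0.000194, and the calls held in all 20 alternatives. The 3 hypoxic levels were not called different from one another. Among the 3 member ligands DLL1 remained the smallest per length, at 1.83% ± 0.22 (SD, n = 3) of their summed level in normoxia and 8.47% ± 0.88 (SD, n = 2) at 24 h. Exons of FAM120B on the opposite strand cover 9.69% of the exonic bases of DLL1, and the strand setting of the counting is not given in the sources used here. FAM120B itself fell, by 2.42, 1.36 and 1.97 on the log2 scale at 6, 12 and 24 h, from a mean of 16.9 CPM in normoxia.

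JAG1 (chromosome 20, 10637684 to 10673999, minus strand), the main Jagged ligand of many epithelia, was the leading ligand per length in normoxia, with 70.7% ± 1.3 (SD, n = 3) of the summed level. It read 150, 162 and 166 CPM in normoxia, 121, 117 and 133 CPM at 6 h, 164, 173 and 159 CPM at 12 h, and 156 and 71.7 CPM at 24 h. The 6 h libraries were all below the normoxic ones, the 12 h libraries overlapped them, and the 24 h libraries lay far apart, with 1 inside the normoxic range and 1 below it. No comparison with 0 h passed: the edgeR log2 fold change was -0.37 (95% interval -0.79 to 0.05, adjusted p = 0.167), 0.05 (-0.37 to 0.47, adjusted p = 0.852) and -0.49 (-0.96 to -0.0083, adjusted p = 0.100). At 24 h it was -1.21 without replicate 1 (edgeR adjusted p = 1.07e-05) and -0.05 without replicate 2, so the 24 h value rests on which library is kept. At 6 h it was called without either 24 h library (-0.39 and -0.38; edgeR adjusted p = 0.00274 and 0.00309).

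JAG2 (chromosome 14, 105140982 to 105168824, minus strand), the other Jagged ligand, read 43.1, 40.9 and 43.7 CPM in normoxia, 61.2, 86.3 and 45.1 CPM at 6 h, 41.4, 78.9 and 64.9 CPM at 12 h, and 62.7 and 65.7 CPM at 24 h. All but the 12 h replicate 1 of the 8 hypoxic libraries were above the normoxic ones. The edgeR log2 fold change was 0.59 ± 0.24 (adjusted p = 0.0543), 0.54 ± 0.24 (adjusted p = 0.0792) and 0.59 ± 0.27 (adjusted p = 0.0701) at 6, 12 and 24 h, so JAG2 was not called at any time. In 8 of 20 alternatives it was called higher at 6 h, and in 4 each at 12 h and 24 h. At 6 h these included DESeq2 (adjusted p = 0.0461) and sample quality weights (limma-voom adjusted p = 0.00263). No filter on low counts and only the 2 compared time points did so too (edgeR adjusted p = 0.0109 and 0.0207). It was called at 6 h without the 6 h replicate 3 (0.80; edgeR adjusted p = 0.0154) and at 12 h without the 12 h replicate 1 (0.76; edgeR adjusted p = 0.0180). Without the 12 h replicate 1 it was also called at 6 h and at 24 h (edgeR adjusted p = 0.0282 and 0.0380), without either 24 h library at 6 h (edgeR adjusted p = 0.0467 and 0.0464), and without the 6 h replicate 2 or 3 at 24 h (edgeR adjusted p = 0.0459 and 0.0454). An unnamed gene on the same strand shares 7.33% of its exonic bases.

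**Figure D3:**
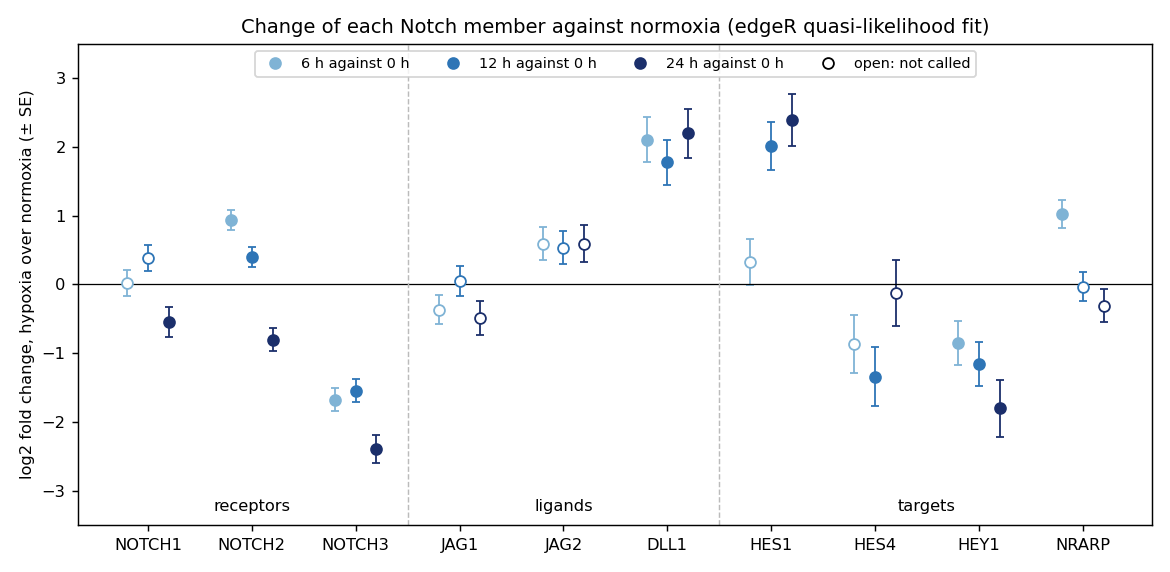
Log2 fold change of each Notch gene at 6, 12 and 24 h against 0 h from the edgeR fit, with bars of 1 SE, where filled points passed an adjusted p of 0.05 and open points did not. NOTCH3 and HEY1 were called lower and DLL1 higher at all 3 times, HES1 was called higher at 12 and 24 h, and NOTCH2 was called on both sides of 0.

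The targets are where the sequences bear most directly on the pathway, since RBPJ binds DNA at a short core, TGGGAA. RefSeq promoters (GRCh38.p14) were found for 8 of the 10 genes, and the table used here has no entry for DLL1 or HEY1. The 250 bases before the start were searched on both strands for TGGGAA, for ACGTG or GCGTG (the core bound by hypoxia-inducible factors), for the N box CACNAG bound by HES proteins, and for GTGGGAA, which contains the TGGGAA core. A match is a description of letters, not a site. HES1 and HES4 were the only matched members with TGGGAA, which 21.1% of 27305 promoters held, and HES1 had it at 2 positions, while 2.92% of promoters had 2 or more. Both also had GTGGGAA, held by 5.46% of promoters. The 30 bases from -90 to -61 of each are shown, since they hold all of these matches, with TGGGAA in capitals (chr3:194136058-194136087, plus strand, and chr1:1000158-1000187, minus strand, 5′ to 3′):
HES1: ttactgTGGGAAagaaagttTGGGAAgttt
HES4: ggctggggcgagtgTGGGAAagaatgcgga

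HES1 had its matches at -84 to -79 and at -70 to -65, and HES4 at -76 to -71, counted from the RefSeq start. The starts of HES4 differ between annotations (1000097 in RefSeq and 1000172 in GENCODE), so its distances hold for the RefSeq start only. The hypoxia core was matched in 7 of the 8 promoters, 4 times in JAG1, 2 times each in HES1 and NOTCH1, and once each in NOTCH3, JAG2, HES4 and NRARP, and not in NOTCH2. This core was present in 43.1% of all promoters. The N box, present in 32.0% of promoters, was matched 3 times in HES1 and once in NOTCH3. The whole 250 bases of HES1 and NRARP are given because these genes rose at different times and differ in the TGGGAA core (chr3:194135898-194136147, plus strand, and chr9:137302272-137302521, minus strand, 5′ to 3′, with TGGGAA and the hypoxia core on either strand in capitals):
HES1: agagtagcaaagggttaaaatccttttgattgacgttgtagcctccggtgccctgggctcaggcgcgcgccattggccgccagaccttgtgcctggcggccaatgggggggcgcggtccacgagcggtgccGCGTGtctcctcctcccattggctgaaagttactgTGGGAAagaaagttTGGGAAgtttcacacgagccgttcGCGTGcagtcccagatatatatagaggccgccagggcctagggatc
NRARP: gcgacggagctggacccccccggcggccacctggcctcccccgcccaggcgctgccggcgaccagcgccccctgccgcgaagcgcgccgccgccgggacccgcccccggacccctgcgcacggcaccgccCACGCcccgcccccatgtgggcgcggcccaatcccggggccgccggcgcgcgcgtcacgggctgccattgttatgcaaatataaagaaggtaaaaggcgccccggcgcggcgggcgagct

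NRARP had no TGGGAA in this window and 1 hypoxia core, on the other strand at -120 to -116, where it reads CACGC, and its window was 78.4% G and C against 59.2% for HES1. Any link between these matches and the times at which the genes rose was not tested.

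**Figure D4:**
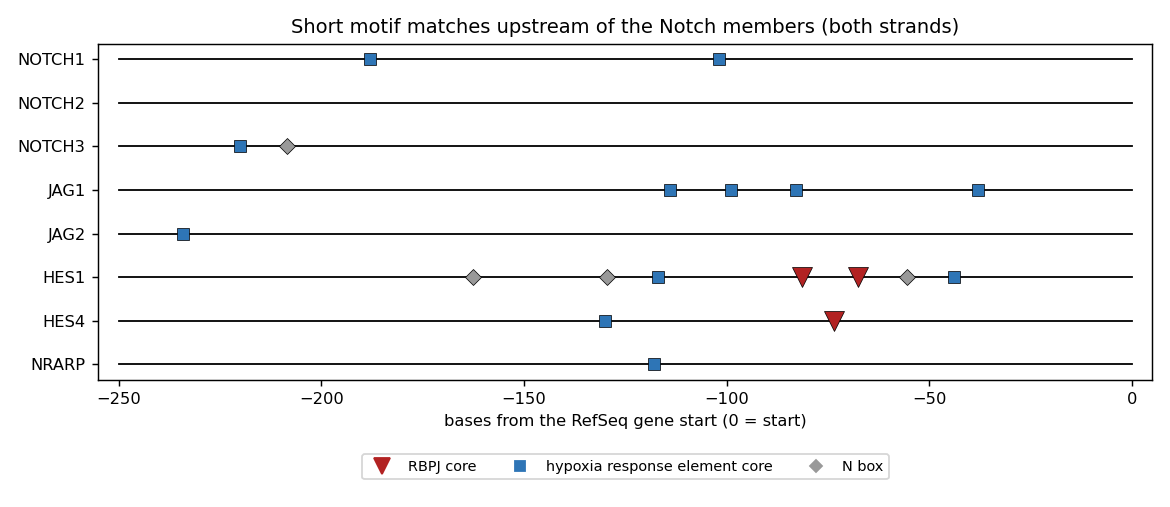
Positions of matches to the RBPJ core, the hypoxia core and the N box in the 250 bases before the RefSeq start of the 8 matched Notch genes, as distance from the start in bases. HES1 held 2 RBPJ cores and HES4 held 1, the other 6 held none, and the hypoxia core was matched in all but NOTCH2.

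HES1 (chromosome 3, 194136148 to 194138732, plus strand) encodes a transcriptional repressor that keeps progenitors undifferentiated and represses its own gene. Its libraries held 43.0, 34.8 and 40.4 CPM in normoxia, 51.4, 22.0 and 75.1 CPM at 6 h, 113, 156 and 210 CPM at 12 h, and 197 and 217 CPM at 24 h. The 6 h libraries lay on both sides of the normoxic ones, and every 12 and 24 h library was above all those of 0 and 6 h. The edgeR log2 fold change was 0.33 ± 0.34 (adjusted p = 0.427) at 6 h, 2.02 ± 0.35 (adjusted p = 0.000504) at 12 h and 2.39 ± 0.38 (adjusted p = 0.000155) at 24 h. The 12 and 24 h calls held in all 20 alternatives. At 6 h the value was -0.10 without replicate 3 and 0.69 (edgeR adjusted p = 0.0393) without replicate 2, so the 3 replicates do not fix a direction. Per length HES1 was 48.4% ± 1.5 (SD, n = 3) of the summed level of the 4 targets in normoxia, 86.8% ± 2.8 (SD, n = 3) at 12 h and 85.8% ± 9.9 (SD, n = 2) at 24 h.

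NRARP (chromosome 9, 137299631 to 137302271, minus strand) encodes a small ankyrin-repeat protein that Notch induces and that in turn dampens Notch signalling. It was measured at 16.2, 12.2 and 15.9 CPM in normoxia, 28.1, 34.2 and 28.0 CPM at 6 h, 14.5, 15.3 and 13.6 CPM at 12 h, and 8.30 and 15.6 CPM at 24 h. All 3 libraries of 6 h were above every other library, and those of 12 h overlapped normoxia. The edgeR log2 fold change was 1.03 ± 0.21 (adjusted p = 0.00130) at 6 h, -0.03 ± 0.21 (adjusted p = 0.915) at 12 h and -0.31 ± 0.24 (adjusted p = 0.276) at 24 h. The rise at 6 h was called in all 20 alternatives. At 24 h the value was 0.03 without replicate 1 and -0.85 (edgeR adjusted p = 0.00429) without replicate 2. NRARP and HES1 differed in the time at which they were highest: 12 h against 6 h was called in both, at -1.06 for NRARP (edgeR adjusted p = 0.0191) and 1.69 for HES1 (edgeR adjusted p = 0.0197). Each of these calls was lost on leaving out single libraries, for NRARP the 6 h replicates 1 or 2 or the 12 h replicates 2 or 3 (edgeR adjusted p = 0.0519 to 0.104), and for HES1 the 6 h replicate 1 or the 12 h replicates 2 or 3 (edgeR adjusted p = 0.0737 to 0.104).

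HEY1 (chromosome 8, 79762371 to 79767857, minus strand) encodes a repressor of the HEY family with roles in vessels and heart. It was scarce, at 1.73, 2.56 and 1.76 CPM in normoxia, 1.09, 0.84 and 1.36 CPM at 6 h, 0.95, 0.50 and 1.23 CPM at 12 h, and 0.60 and 0.54 CPM at 24 h, and all 8 hypoxic libraries were below the 3 normoxic ones. The edgeR log2 fold change was -0.85 ± 0.31 (adjusted p = 0.0365) at 6 h, -1.15 ± 0.32 (adjusted p = 0.00979) at 12 h and -1.80 ± 0.42 (adjusted p = 0.00255) at 24 h. The 6 h call was lost without any of the 3 normoxic libraries or without the 6 h replicates 1 or 2 (edgeR adjusted p = 0.0508 to 0.148), the 12 h call held in all 20 alternatives, and the 24 h call was lost in 1, limma-voom with quality weights (adjusted p = 0.315). The hypoxic time points were not called different from one another.

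HES4 (chromosome 1, 998962 to 1000172, minus strand), a HES-family repressor found in humans but not in mice, read 16.6, 15.9 and 15.8 CPM in normoxia, 6.22, 11.2 and 9.06 CPM at 6 h, 4.67, 7.82 and 6.56 CPM at 12 h, and 4.75 and 25.0 CPM at 24 h. All 6 and 12 h libraries were below normoxia, and the 24 h replicates lay on opposite sides of it. Only 12 h was called: the edgeR log2 fold change was -0.87 ± 0.43 (adjusted p = 0.103) at 6 h, -1.34 ± 0.43 (adjusted p = 0.0204) at 12 h and -0.13 ± 0.48 (adjusted p = 0.830) at 24 h. The 12 h call was lost without the 12 h replicate 1 or 3 (edgeR adjusted p = 0.0804 and 0.0526). The 6 h value was called lower in 7 of 20 alternatives. Among them were sample quality weights (limma-voom adjusted p = 0.00211) and, in edgeR, no filter on low counts (adjusted p = 0.000123) and only the 2 compared time points (adjusted p = 0.00167). Library size alone (edgeR adjusted p = 0.0170), the replicate block (edgeR adjusted p = 0.0360) and leaving out either 24 h library (-0.89 and -0.88) made up the rest. At 24 h the value was 0.58 without replicate 1 (edgeR adjusted p = 0.0886) and -1.78 without replicate 2 (edgeR adjusted p = 0.000854), so no direction can be given for it.

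The genes whose levels were most like those of each target, by Pearson's r of log2 CPM over the 11 libraries, were GPATCH2 (0.941), NFIL3 (0.941) and PLOD1 (0.930) for HES1, TUSC1 (0.948), DYNC2I2 (0.946) and ITPKA (0.938) for HES4, ARSD (0.952), NHLRC3 (0.949) and TMEM254 (0.939) for HEY1, and NUDT19 (0.964), ZNF707 (0.961) and LIN7C (0.954) for NRARP. No other Notch gene was among them. The libraries fall into time points and share library sizes and scaling, so these values describe likeness of profile over 4 time points.

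Around these genes, a list of 57 further genes of the pathway was read by role, of which 52 were tested and NOTCH4, DLK1, DTX1, HES3 and HEY2 were too low. At 6 h 17 were called higher and 11 lower, at 12 h 16 and 10, and at 24 h 16 and 20, which is 28, 26 and 36 of 52 beside the 52.8%, 51.2% and 61.2% of all tested genes given above. The median log2 fold change of the list was 0.26, 0.15 and 0.13.

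The 4 tested ligands outside the members included DLL4, the Delta-like ligand of sprouting vessels, and DLL3, a ligand that acts mainly inside the cell. In this role 1, 3 and 4 were called higher at 6, 12 and 24 h and none lower. Of all tested genes 25.1%, 24.2% and 29.9% were called higher and 27.7%, 27.1% and 31.3% lower. For DLL4 a lower call was hardly possible, since it passed the filter on low counts only through its hypoxic libraries. DLL4 had only 4 to 9 counts per normoxic library, or 0.10 to 0.21 CPM, against 0.70 to 0.85 CPM at 6 h, and the edgeR log2 fold change was 2.29, 1.83 and 2.96 at 6, 12 and 24 h. Its 24 h libraries held 2.10 and 0.27 CPM, and without replicate 1 the 24 h value was 0.74 and no longer called (edgeR adjusted p = 0.39). DLL3 read 0.58 to 0.77 CPM in normoxia and 2.18 and 12.2 CPM at 24 h, and its log2 fold change was 1.29 at 6 h, 1.31 at 12 h and 3.34 at 24 h. The 12 and 24 h values were called, while that of 6 h just missed the threshold (edgeR adjusted p = 0.0506) and was called in 7 of 20 alternatives. Its 24 h value was 1.62 without replicate 2. The DLL3 call at 12 h was lost in 12 of 20 alternatives, among them without any of the 3 normoxic libraries, the 3 libraries of 6 h or the 12 h replicates 2 or 3 (edgeR adjusted p = 0.0633 to 0.194), and that of DLL4 without the normoxic replicates 2 or 3 or the 12 h replicate 1 (edgeR adjusted p = 0.0647 to 0.0947).

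Of the 5 enzymes that add sugars to Notch, LFNG rose and POFUT1 fell at each time point, and MFNG, RFNG and POGLUT1 were not called. LFNG, the lunatic fringe enzyme that changes which ligands a receptor answers to, rose from 0.62, 1.01 and 0.94 CPM to 6.83, 7.98 and 2.81 CPM at 6 h (log2 fold change 2.76), and its values at 12 and 24 h were 1.36 and 2.61. The 12 h call of LFNG was lost in 9 of 20 alternatives, among them limma-voom, the study's own test (adjusted p = 0.0782). Library size alone and at least 10 counts in every library also lost it (edgeR adjusted p = 0.113 and 0.0576). The others left out any normoxic library, the 6 h replicate 1 or the 12 h replicates 2 or 3 (edgeR adjusted p = 0.0526 to 0.128). The 24 h value of LFNG was 1.39 and no longer called without replicate 2. POFUT1, the O-fucosyltransferase that receptors need to bind ligands, fell in every hypoxic library, from 108 to 125 CPM down to 53.7 to 57.0 CPM at 6 h and 29.3 to 34.7 CPM at 24 h (log2 fold change -1.09, -1.24 and -1.87 at 6, 12 and 24 h), and the calls held in all 20 alternatives.

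Of the cutting enzymes, ADAM10 and ADAM17 were not called at any time point, and FURIN was called higher at 6 h and lower at 24 h. In gamma-secretase PSEN2, a catalytic subunit, and APH1A were not called at any time. PSENEN rose, with log2 fold changes of 0.94, 1.25 and 2.47, and APH1B fell, at -1.62, -1.52 and -1.19, the last not called with sample quality weights (limma-voom adjusted p = 0.0917). PSENEN overlaps other genes over 31.3% of its exonic bases on the opposite strand and 21.0% on the same strand, so its counts are less certain, and its 24 h libraries held 18.0 and 38.5 CPM against 4.58 to 5.70 CPM in normoxia. Without the 24 h replicate 2 its 24 h value was 1.80.

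In the nuclear complex RBPJ itself rose, from 53.0 to 55.9 CPM in normoxia to 108, 103 and 75.3 CPM at 6 h, and its log2 fold changes were 0.82, 0.52 and 0.59 over the time course. The 12 h call of RBPJ was lost without the 12 h replicate 2 (0.43, edgeR adjusted p = 0.0509) and with library size alone (0.06, edgeR adjusted p = 0.815). With library size alone the value was -0.33 at 24 h. The 24 h call of RBPJ was also lost with no filter on low counts (edgeR adjusted p = 0.0545) and with sample quality weights (limma-voom adjusted p = 0.0895). KAT2B, a histone acetyltransferase, fell at all 3 times (-1.28, -1.17 and -0.96), the last not called without the 24 h replicate 2 (-0.57; edgeR adjusted p = 0.0559) or with sample quality weights (limma-voom adjusted p = 0.0941), and -1.63 without replicate 1. SNW1, which bridges the complex to transcription, was called higher at all 3 times (0.41, 0.81 and 1.01), with the 6 h call lost without any normoxic library or the 6 h replicate 1 (edgeR adjusted p = 0.0724 to 0.0966). That 6 h call was also lost with no filter on low counts or at least 10 counts in every library (edgeR adjusted p = 0.119 and 0.0645). With library size alone SNW1 was not called at 6, 12 or 24 h (0.09, 0.34 and 0.14, edgeR adjusted p = 0.761, 0.225 and 0.628).

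Among 11 co-repressor genes, 6, 4 and 3 were called higher and 1, 1 and 5 lower at 6, 12 and 24 h. The shares of all tested genes were 25.1%, 24.2% and 29.9% higher and 27.7%, 27.1% and 31.3% lower. SPEN, which holds RBPJ targets off, was called higher at 6 and 12 h. TLE4, a Groucho-family partner of HES proteins, was called higher at 6, 12 and 24 h (1.69, 1.31 and 0.80), but at 24 h it was 0.05 without replicate 1. That 24 h call was lost in 12 of 20 alternatives, including without any normoxic library, the 6 h replicate 2 or any 12 h library (edgeR adjusted p = 0.0516 to 0.113), and with library size alone the value was -0.02. HDAC1, a histone deacetylase, was called higher by 0.35, 0.32 and 0.63, and its 6 and 12 h calls were lost without any normoxic library, the 6 h one also without the 6 h replicate 2 and the 12 h one without any 12 h library (edgeR adjusted p = 0.0561 to 0.110). With library size alone the HDAC1 values at 12 and 24 h were -0.15 and -0.29.

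Of 11 tested genes for ubiquitin transfer and receptor turnover, 3, 4 and 3 were called higher and 3, 3 and 4 lower. These counts stand beside the shares of all tested genes given for the co-repressors. The ligases that let a ligand be pulled into its own cell fell: NEURL1B from 110 to 125 CPM down to 16.6 and 9.26 CPM at 24 h (log2 fold change -1.76, -2.10 and -3.20) and MIB1 from 109 to 114 CPM down to 53.7 and 40.2 CPM (-0.71, -1.02 and -1.25), whereas MIB2 and NEURL1 were not called at any time. Both falls were called in all 20 alternatives at each time point. DTX3, a Deltex ligase, fell at all 3 times (-1.03, -0.89 and -1.08), with the 24 h call lost under sample quality weights (-1.02, limma-voom adjusted p = 0.144).

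The other HES and HEY genes also split. HES2, with 196, 221 and 211 CPM in normoxia, was at a higher level per length (38.7 FPKM) than HES1 (19.1 FPKM), and it fell to 28.7 to 33.2 CPM at 6 h, 22.5 to 47.4 CPM at 12 h, and 16.7 and 33.9 CPM at 24 h (log2 fold change -2.79, -2.49 and -3.05, the last -3.66 without the 24 h replicate 2). HES7, the somite-clock repressor, rose from 1.47 to 2.03 CPM to 7.10 to 20.8 CPM over the 8 hypoxic libraries (2.63, 2.23 and 2.98), and its 24 h value was 2.05 without the 24 h replicate 2. HEYL fell alongside HEY1 (-1.11, -1.25 and -2.56), from 1.20 to 1.39 CPM to 0.09 and 0.38 CPM at 24 h. Its 24 h value was -3.90 without replicate 2 and -1.83 without replicate 1, and the call was lost with sample quality weights (limma-voom adjusted p = 0.0749). HES5 was called lower at 12 and 24 h, and HES6 was called higher at 24 h. At 24 h HES1, HES6 and HES7 were therefore called higher and HES2, HES5, HEY1 and HEYL lower, while HES4 had no direction that both libraries shared.

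**Figure D5:**
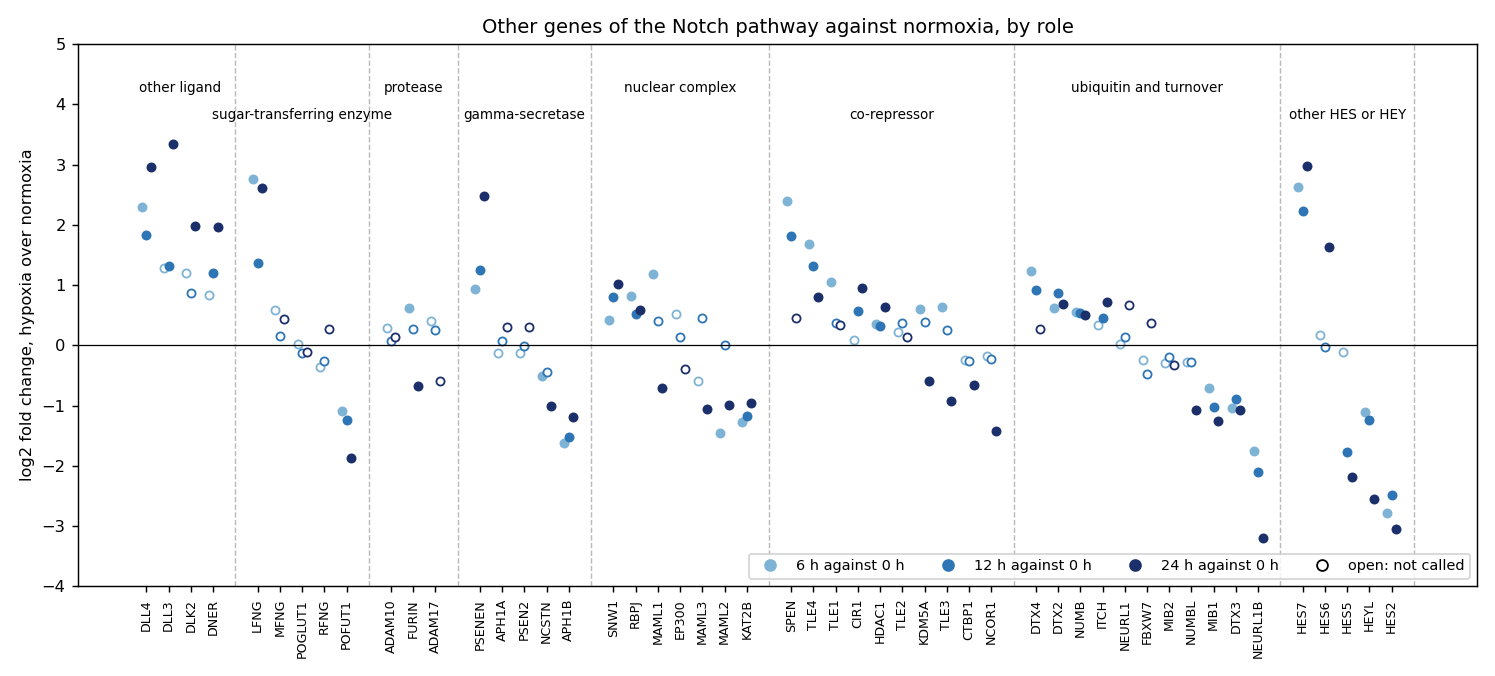
Log2 fold change against 0 h of most of the tested genes of the 57-gene pathway list, grouped by role, at 6, 12 and 24 h, with 1 point per gene and time and filled points for those with an adjusted p under 0.05 in edgeR. Calls lie on both sides of 0 in most roles, and the other ligands were called only higher. One of these, DLL4, passed the filter on low counts only through its hypoxic libraries, so it could hardly be called lower.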

How the data were processed

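RNA longer than 200 nucleotides from RWPE1 cells was sequenced as single-end reads from a stranded kit, in 11 libraries. The authors trimmed reads with Trimmomatic, aligned them with STAR to GRCh38 and deposited raw featureCounts counts per Ensembl gene, with no normalization. How reads with several matches were counted is not given in the sources used here. Replicate 3 at 24 h was not analysed here, and every column was matched (0 unmatched). The 10 genes, the pathway list by role and the marker lists were chosen with earlier results of these data known.

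From the counts, edgeR 4.0.16 (R 4.3.3) was run on all 11 libraries with time point as the only factor. filterByExpr (minimum count 10, minimum total 15, by time point), TMM scaling and the quasi-likelihood F test were used, and Benjamini-Hochberg adjustment ran over 19981 genes. The study's own test, limma on voom values, is 1 of the alternatives, as count tests suit raw counts. The standard error is the absolute log2 fold change over the square root of F, and intervals are 1.96 standard errors on each side. That normal multiplier takes no account of the limited degrees of freedom of the test, so the intervals are narrower than 95% ones. Log2 CPM used a prior count of 2. The biological coefficient of variation was 19.6%. Positions, exon lengths and overlaps are from GENCODE on GRCh38, in which 60357 of 60676 identifiers were found, and promoters from RefSeq. Alternatives exchanged the test (limma 3.58.1 voom, the same with sample quality weights, DESeq2 1.42.0), scaling, filter, libraries in the fit and replicate block, and left out each library in turn. The code of the fit was run on simulated counts in which few genes changed and the spread was alike at all time points. These data differ in both, so that run does not show how the fit performs on them. Named are the 10 members, the up to 3 genes of each role called in the same direction at all 3 times with the largest average log2 fold change, NOTCH4, DLL3, DLL4 and RBPJ, and SPEN, HES5, HES6, FURIN and FAM120B, which were chosen after their values were seen, as were further list genes named only as not called or as too low to test. Some genes of these lists are counted but not reported singly here.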

Additional observations from a re-analysis of the deposited data

Results flagged for a closer look

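Values of 5 members were picked out because the level of a gene differed between 2 hypoxic time points, as tested directly by edgeR, adjusted by Benjamini-Hochberg. NOTCH1 was lower at 24 h than at 12 h by a log2 fold change of -0.93 (edgeR adjusted p = 0.00921). NOTCH2 was lower at 12 h than at 6 h (-0.55, edgeR adjusted p = 0.0485), a call lost in 11 of 20 alternatives, among them without any normoxic library, any 12 h library or the 6 h replicates 1 or 2 (edgeR adjusted p = 0.0826 to 0.171). It was also lower at 24 h than at 12 h (-1.20, edgeR adjusted p = 0.00133) and 6 h (-1.75, edgeR adjusted p = 4.92e-05), the former not called with only these 2 time points in the fit (edgeR adjusted p = 0.0658). NOTCH3 was lower at 24 h than at 12 h (-0.85, edgeR adjusted p = 0.00711) and 6 h (-0.72, edgeR adjusted p = 0.00885). With sample quality weights the 24 h against 12 h calls of NOTCH1 and NOTCH3 and the 24 h against 6 h call of NOTCH3 were lost (limma-voom adjusted p = 0.0533, 0.0780 and 0.139), as they were with only the 2 compared time points in the fit (edgeR adjusted p = 0.0819, 0.0658 and 0.0738). HES1 was higher at 12 h and at 24 h than at 6 h (1.69 and 2.06, edgeR adjusted p = 0.0197 and 0.00106). NRARP was lower at 12 h and at 24 h than at 6 h (-1.06 and -1.33, edgeR adjusted p = 0.0191 and 0.00116). The 12 h against 6 h calls of HES1 and NRARP were lost in 3 and 4 of 20 alternatives. Values at 24 h rest on 2 libraries that differ in mitochondrial share and scaling factor, and the part of these in the differences was not tested.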

How the results depend on the processing

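Of 800 values of the 10 genes under alternatives, 688 kept their direction and side of the threshold, 51 lost the call, 41 gained one and 20 turned in sign. With quality weights 8 of the 10 genes were called at 6 h (5 in the main analysis) and 1 at 24 h against 12 h (3), and of the pathway list 42 at 12 h (26), 18 at 24 h (36), 15 at 12 h against 6 h (4), 7 at 24 h against 12 h (17) and 10 at 24 h against 6 h (25). With only the compared time points in the fit, edgeR called 8 of the 10 genes at 6 h and 0 at 24 h against 12 h (3 at an unadjusted p under 0.05), and of the list 40 at 12 h, 0 at 24 h against 12 h (16 unadjusted) and 11 at 24 h against 6 h. No filter gave 5 of the 10 genes at 24 h against 12 h. For the list at 12 h against 6 h, DESeq2 gave 7 and library size alone 1. For the 6 and 12 h counts with quality weights or only the compared time points, no all-gene count is given here.

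Leaving out 1 library gave 4 to 8, 4 to 7 and 5 to 8 of the 10 genes at 6, 12 and 24 h, 0 to 4 at 12 h against 6 h, 3 to 5 at 24 h against 12 h and 4 to 6 at 24 h against 6 h. For the list it gave 23 to 37, 17 to 36, 29 to 39, 0 to 10, 13 to 29 and 20 to 33. Over all tested genes the calls moved as well, from 8657 to 13115, 8176 to 12655 and 10759 to 13152 at 6, 12 and 24 h. In the same order, the comparisons between hypoxic time points ran from 61 to 3649, 3068 to 9491 and 7019 to 10544.

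Library size alone moved the median of all genes to -0.32, -0.50 and -0.97 at 6, 12 and 24 h. Under it 3, 2 and 2 of the 10 genes were called higher and 3, 4 and 7 lower, and 9, 3 and 5 of the list higher and 17, 19 and 31 lower. Of all tested genes 2713, 2116 and 2222 were then called higher and 7130, 8444 and 11305 lower, so most calls were lower there too. With library size alone signs turned for NOTCH1 at 6 h (-0.30) and 12 h (-0.069), NOTCH2 (-0.070), JAG1 (-0.41) and HDAC1 (-0.15) at 12 h, and JAG2 (-0.33), RBPJ (-0.33), HDAC1 (-0.29) and TLE4 (-0.025) at 24 h. Signs also turned with quality weights for HES1 at 6 h (-0.18), with no filter for NOTCH1 at 6 h (-0.020), and with at least 10 counts in every library for NOTCH1 at 6 h (-0.066) and JAG1 at 12 h (-0.049). Leaving out 1 library, values ran from -0.089 to 0.078 for NOTCH1 at 6 h, -0.10 to 0.69 for HES1 at 6 h, -0.015 to 0.082 for JAG1 at 12 h, -0.16 to 0.035 for NRARP at 12 h, -0.85 to 0.027 for NRARP at 24 h and -1.78 to 0.58 for HES4 at 24 h. The cause was not tested.

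Over all tested genes, 12235 calls at 24 h became 6169 with quality weights, 5668 at 24 h against 12 h became 1093, and 8479 at 24 h against 6 h became 2531. With only the compared time points the latter pair gave 0 (5671 at an unadjusted p under 0.05) and 3916, and leaving out 1 library gave 3068 to 9491 at 24 h against 12 h. The 989 calls at 12 h against 6 h ran from 61 without the 12 h replicate 3 to 4489 with quality weights.

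Replicate numbers were checked by correlating, between time points, each library's deviations from the mean log2 CPM of its time point. These deviations correlated at -0.156 to 0.207 over 15 same-numbered pairs and at -0.271 to 0.283 over 30 differently numbered pairs. Of 11 libraries, 4 matched best with their own number. The check showed no pairing by number, but it is weak, since the deviations of the 24 h pair mirror each other by construction. With the number as a replicate block, the list had 2 calls at 12 h against 6 h, NOTCH2 lost its calls at 12 h (edgeR adjusted p = 0.0595) and at 12 h against 6 h (0.0978), and HES4 gained 1 at 6 h (0.0360).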
